A study of Mus musculus with 6 samples.

Results

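Laminins, nidogens and the large basement membrane proteoglycans were followed in 3T3-L1 adipocytes with and without RBMS1 knockdown. These were 10 genes of the 45706 in the gene table, namely Nid1, Nid2, Lama2, Lama4, Lama5, Lamb1, Lamb2, Lamc1, Hspg2 and Agrn. They were chosen by the measured counts of Nid2, which was lower in the knockdown, so the knockdown difference of Nid2 is given here as a description and supports nothing. All 10 were found in the table, and 9 were among the 11440 genes with enough reads to be tested by edgeR's own filter. Lama2 was not.

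3T3-L1 is a mouse embryo fibroblast line that can be turned into fat-storing cells. The 3 scrambled control samples (genotype WT in the labels) and the 3 RBMS1 knockdown samples (RBMS1KD) had both been through adipogenic differentiation with IBMX, Insulin, Dexamethasone and roziglitazone (as the labels spell it), and were harvested on day 7. The labels give the cell type as Fibroblast. The knockdown line was a stable line made with a lentiviral shRNA and puromycin selection. The study reports the knockdown of the protein by immunoblot, while the values here are of RNA. The study's methods call the replicates biological, but the sources used here do not say whether they came from separate transductions, so the p-values measure the spread between these samples. Total RNA was sequenced after removal of ribosomal RNA, with 3142695 to 11073098 estimated counts per sample, of which 7406 to 47335 belonged to the 10 genes. Scrambled control replicate 2 had the fewest counts, and genes derived from ribosomal RNA took 43.0% of them against 8.12% to 17.8% in the other samples. Rbms1 itself had 113, 102 and 99.6 CPM in the control samples and 49.2, 61.4 and 84.0 CPM in the knockdown samples. CPM, the counts scaled to library size, were computed after TMM, edgeR's correction for differences in RNA composition. The Rbms1 groups did not overlap, and the log2 fold change was -0.69 (SE 0.20, edgeR adjusted p = 0.185), which did not pass the threshold of 0.1 used throughout. With each sample left out it lay between -0.92 and -0.52 and passed in 1 of the 6 fits (edgeR adjusted p = 0.0708), the one without RBMS1 knockdown replicate 3, which had the most Rbms1 of its group, so that leaving it out could only enlarge the difference. With library size alone it was -0.31 (edgeR adjusted p = 0.572).

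A basement membrane is a thin sheet of matrix that adipocytes, like muscle and nerve-supporting cells, build around themselves. Laminins are its organizers, each a trimer of an alpha, a beta and a gamma chain that binds receptors such as integrins on the cell surface. Many are cross-shaped and polymerize there, while the alpha 4 chain lacks the short arm that this needs. Nidogens bridge the laminin network to the network of type IV collagen, and the heparan sulfate proteoglycans perlecan (Hspg2) and agrin (Agrn) bind both and hold growth factors. In mature fat the alpha 4 chain is a well-known laminin component of the membrane around each adipocyte.

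The nidogens are paralogs, so it was first asked whether their reads could be mistaken for each other. None of the 31-base words in the annotated transcripts of any of the 10 genes occurred in another of the 10. The longest run of identical bases shared by the coding sequences of Nid1 and Nid2 was 19 bases long. It lies at coding bases 2679 to 2697 of Nid1 and 3024 to 3042 of Nid2, in the transcript with the longest coding sequence of each (3738 and 4212 bases, GENCODE M21, GRCm38), and is shown in capitals with 12 bases of each gene on either side to show where the paralogs are most alike:
Nid1: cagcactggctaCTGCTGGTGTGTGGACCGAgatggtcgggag
Nid2: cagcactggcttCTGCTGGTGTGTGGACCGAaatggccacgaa
Nid2 (ENSMUSG00000021806) lies on the plus strand of chromosome 14 from 19751265 to 19811787. Its last 437 exonic bases, 8.45% of its exon length, overlap those of Rtraf on the opposite strand, and the sources used here do not state whether counting used the strand. Rtraf had a log2 fold change of -0.23 (SE 0.17, edgeR adjusted p = 0.621). In the same way 143 exonic bases of Nid1 (2.06%) overlap Gm48682, and 631 of Lama2 (3.86%) overlap Gm48084.

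Per kilobase of exon, Nid1 was the most abundant of the 10 transcripts and Lama2 the least. The mean over the 6 samples was 115.7 CPM per kilobase for Nid1, 64.9 for Hspg2, 59.0 for Lamc1, 54.7 for Lamb1 and 39.3 for Lama4. It was 14.9 for Lamb2, 10.6 for Nid2, 8.17 for Agrn, 0.771 for Lama5 and 0.0614 for Lama2. Some neighbours in this order overlapped. Hspg2 exceeded Lamc1 in 4 of 6 samples, Lamc1 exceeded Lamb1 in 4 and Lamb2 exceeded Nid2 in 5. The order of Nid2 and Agrn differed by group, since Nid2 was above Agrn in all 3 control samples and below it in all 3 knockdown samples. That is a description, since Nid2 was chosen for its lower level. The samples of Nid1 and Hspg2, of Lamb1 and Lama4, of Lama4 and Lamb2, of Agrn and Lama5, and of Lama5 and Lama2 did not overlap. The lengths were the summed exons of all annotated isoforms, so a gene that uses a short isoform is set too low.

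**Figure D1:**
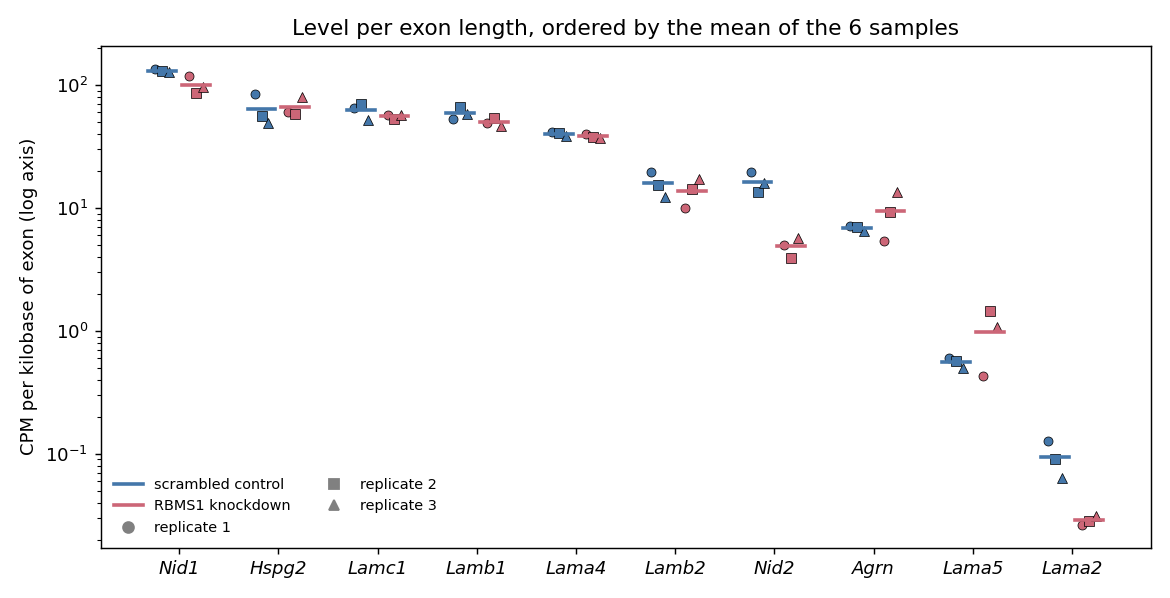
CPM per kilobase of exon (log axis) for the 10 genes, ordered by the mean of the 6 samples, with 1 symbol per replicate and a bar at the mean of each group of 3. The first 5 genes lie between 37.3 and 136 CPM per kilobase, and the Nid2 samples lie between 13.6 and 19.6 in the control and between 3.93 and 5.69 in the knockdown.

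Lama4, Lamb1 and Lamc1 were the most abundant alpha, beta and gamma chain transcripts of the family. Lama4 made up 96.2% to 98.9% of the per-length level of the 3 alpha chains in each of the 6 samples, Lama5 between 1.06% and 3.74% and Lama2 at most 0.302%. Lamb1 made up 72.8% to 82.9% of the beta chains, and Lamb2, the chain typical of the neuromuscular junction and the kidney filter, the rest. Per length, the beta chains together stood at 1.22 ± 0.13 (SD, n = 3) times Lamc1 in the control samples and 1.15 ± 0.14 (SD, n = 3) times in the knockdown samples. The alpha chains together stood at 0.665 ± 0.078 (SD, n = 3) and 0.706 ± 0.033 (SD, n = 3) times Lamc1, the only gamma chain in the family, so the groups differed by less than the SD of the control samples in both ratios. Hspg2 made up 85.5% to 92.2% of the 2 proteoglycans.

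With RBMS1 knockdown, Nid2 was about 3.37-fold lower, and no other of the 9 tested genes passed an adjusted p of 0.1. Without Nid2, 5 of the 8 tested genes had a log2 fold change below 0 and 3 above, with a median of -0.11 against 0.0044 over all 11440 genes, of which 49.6% were below 0. With Nid2 it was 6 of 9 and a median of -0.16. This count depended on the scaling of the libraries. With library size alone in place of TMM, 2 of the 9 were below 0 (Nid1 and Nid2), and the median of all tested genes was 0.37. By the same edgeR test 1.22% of all tested genes passed, 0.909% lower and 0.315% higher. At an adjusted p under 0.05 it was 0.463%, and Nid2 was again the called gene of the 9. Since Nid2 chose the family, its single call is not read against these shares. DESeq2 also called Nid2 alone of the 10, with 3.20% of its tested genes called. Besides Nid2, whose separation the choice of the family fixed, every knockdown sample lay below every control sample in 1 of the 8 other genes, Nid1. That share of 12.5% was near the 9.55% of all tested genes. In 0 of the 9 did every knockdown sample lie above every control sample, against 8.96% of all tested genes. The summed level of the 10 genes was 4021, 3676 and 3291 CPM in the control samples and 3278, 3064 and 3475 in the knockdown samples, and the groups overlapped.

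**Figure D2:**
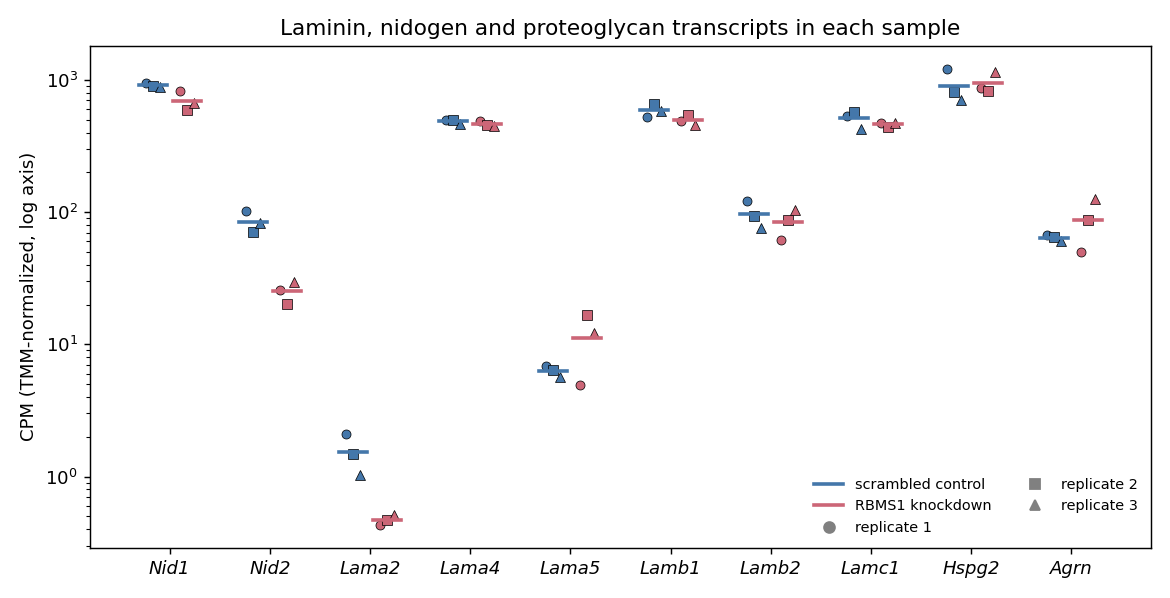
TMM-normalized CPM (log axis) of the 10 genes in each sample, with 1 symbol per replicate and a bar at the mean of each group of 3. The Nid2 samples lie between 70.5 and 101 CPM in the control and between 20.3 and 29.4 in the knockdown, while most other genes overlap between the groups.

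Nid2, the less abundant nidogen, had 101, 70.5 and 82.9 CPM in the control samples (632, 142 and 482 counts) and 25.9, 20.3 and 29.4 CPM in the knockdown samples (180, 174 and 401 counts). The knockdown samples all lay below the lowest control sample, and the gap between the groups was wider than the spread within either of them. The fitted log2 fold change was -1.75 (SE 0.20), and it lay between -1.87 and -1.60 with each of the 6 samples left out in turn. Nid2 made up 12.6%, 9.53% and 11.1% of the per-length nidogen level in the control samples and 4.07%, 4.40% and 5.53% in the knockdown samples. The ratio of Nid1 to Nid2 was 8.15 ± 1.28 (SD, n = 3) in the control and 20.8 ± 3.35 (SD, n = 3) in the knockdown. Within the knockdown group, the order of Nid2 over the samples was not that of Rbms1, since replicate 1 had the lowest Rbms1 level and replicate 2 the lowest Nid2 level.

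Nid1 (ENSMUSG00000005397, chromosome 13, 13437551 to 13512269), also known as entactin, had 944, 898 and 890 CPM in the control samples and 818, 594 and 674 CPM in the knockdown samples. The groups did not overlap, yet the gap between replicate 1 of the knockdown and the lowest control was smaller than the spread of the knockdown samples. The log2 fold change was -0.39 (SE 0.18, 95% interval -0.80 to 0.025, edgeR adjusted p = 0.430), and over all alternatives the adjusted p lay between 0.130 and 0.983. Nid1 did not pass in any of them, and with library size alone its log2 fold change was -0.014. The per-length level of both together relative to Lamc1 was 2.39, 2.05 and 2.78 in the control samples and 2.14, 1.69 and 1.80 in the knockdown samples, with overlap.

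The 3 most abundant laminin chains did not pass the test. Lama4 (ENSMUSG00000019846, chromosome 10, 38965515 to 39110188), the alpha chain of adipocyte and vessel laminin, had 500, 495 and 463 CPM in the control samples and 485, 453 and 450 CPM in the knockdown samples. Its log2 fold change of -0.07 had the smallest SE of the family (0.15) and a 95% interval of -0.40 to 0.26. Lamb1 (ENSMUSG00000002900, chromosome 12, 31265234 to 31329644) had 526, 662 and 583 CPM against 486, 540 and 460, a log2 fold change of -0.25 (SE 0.17, 95% interval -0.63 to 0.12). Lamc1 (ENSMUSG00000026478, chromosome 1, 153218922 to 153332786), the gamma chain shared by most laminins, had 538, 577 and 429 CPM against 476, 437 and 473, a log2 fold change of -0.16 (SE 0.17, 95% interval -0.54 to 0.23). In each of these 3 genes the groups overlapped, the edgeR adjusted p was between 0.582 and 0.892, and the sign turned positive with library size alone. Under that scaling the median of all tested genes also rose, from 0.0044 to 0.37.

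Lamb2 (ENSMUSG00000052911, chromosome 9, 108479736 to 108490530) had 121, 93.8 and 75.4 CPM in the control samples and 61.4, 87.2 and 104 CPM in the knockdown samples. Its samples interleaved, and the log2 fold change was -0.20 (SE 0.23, 95% interval -0.72 to 0.33, edgeR adjusted p = 0.785), which turned positive with library size alone and without scrambled control replicate 1.

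The 2 minor alpha chains had few counts. Lama5 (ENSMUSG00000015647, chromosome 2, 180176373 to 180225859), an alpha chain of epithelial and vessel basement membranes, had 6.89, 6.45 and 5.68 CPM in the control samples and 4.89, 16.6 and 12.2 CPM in the knockdown samples (43, 13 and 33 against 34, 142 and 166 counts). Replicate 1 of the knockdown lay below all control samples and the other knockdown replicates above them. The log2 fold change was 0.83 (SE 0.41, 95% interval -0.084 to 1.74, edgeR adjusted p = 0.449). Leaving out RBMS1 knockdown replicate 1, which had the least Lama5 of its group, raised it to 1.19 (edgeR adjusted p = 0.0531). That passed, in a fit where 696 of 11724 tested genes passed, against 140 of 11440 with all samples. Without RBMS1 knockdown replicate 2 it was 0.46 (edgeR adjusted p = 0.793). Lama2 (ENSMUSG00000019899, chromosome 10, 26980036 to 27619758), the alpha chain of muscle laminin, had 13, 3 and 6 counts in the control samples and 3, 4 and 7 in the knockdown samples, or 2.08, 1.49 and 1.03 CPM against 0.431, 0.468 and 0.514 CPM. The CPM did not overlap, while the counts did. Without the filter its log2 fold change was -1.65 (SE 0.70, edgeR adjusted p = 0.447), so no difference was called. The part of its low counts in this was not tested.

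Of the proteoglycans, perlecan (Hspg2, ENSMUSG00000028763, chromosome 4, 137468769 to 137570630) had 1216, 806 and 701 CPM in the control samples and 871, 828 and 1145 CPM in the knockdown samples. Every knockdown sample lay within the range of the control samples, and the log2 fold change was 0.06 (SE 0.25, 95% interval -0.49 to 0.62, edgeR adjusted p = 0.947), with a sign that changed when single samples were left out. Agrin (Agrn, ENSMUSG00000041936, chromosome 4, 156165290 to 156197488), known for clustering acetylcholine receptors at the nerve-muscle contact, had 66.7, 65.0 and 60.6 CPM against 50.0, 86.5 and 126 CPM. As in Lama5, knockdown replicate 1 lay below all control samples and the other knockdown replicates above them. The SD of Agrn was 38.2 CPM in the knockdown and 3.16 CPM in the control samples (n = 3 each). The log2 fold change was 0.45 (SE 0.28, edgeR adjusted p = 0.560). Leaving out RBMS1 knockdown replicate 1, which had the least Agrn of its group, raised it to 0.74 (edgeR adjusted p = 0.0609). That passed, in a fit where 696 of 11724 tested genes passed, against 140 of 11440 with all samples. Without RBMS1 knockdown replicate 3 it was 0.095 (edgeR adjusted p = 0.919).

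**Figure D3:**
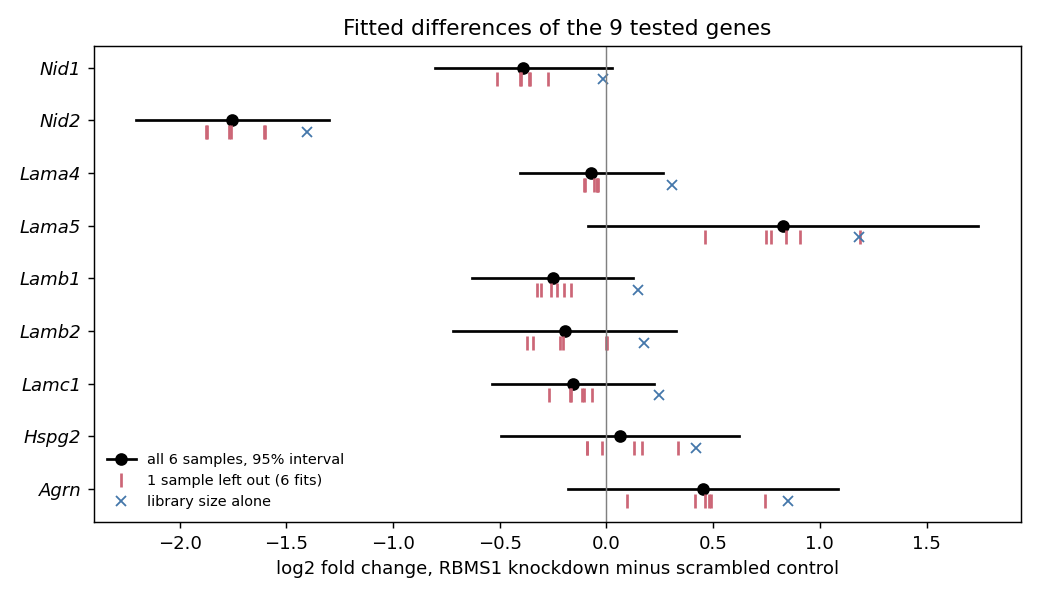
Fitted log2 fold change (knockdown minus control) of the 9 tested genes, with 95% intervals, the 6 fits with 1 sample left out (red ticks) and the fit by library size alone (blue crosses). Nid2 lies at -1.75 with every tick between -1.87 and -1.60, while the intervals of the other 8 genes include 0. The crosses lie to the right of the main estimates for all 9.

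The genes that work with these proteins were examined in 5 hand-written lists. Of the 8 basement membrane collagens, 5 were tested, all 5 had a log2 fold change below 0 (median -0.76), and 1 passed, Col15a1. DESeq2 called 3 of the 5 (Col15a1, Col4a1 and Col4a2), against 3.20% of all its tested genes, and 3 had an unadjusted p under 0.05 by edgeR, as did 12.4% of all tested genes. In 4 of the 5 every knockdown sample lay below every control sample, against 9.55% of all tested genes. Col15a1, a collagen of the outer face of basement membranes, had 342, 275 and 262 CPM in the control samples and 21.0, 11.0 and 4.55 CPM in the knockdown samples. Its log2 fold change was -4.60 (SE 0.48, edgeR adjusted p = 0.0116), and it passed with each sample left out in turn, with log2 fold changes from -5.24 (without RBMS1 knockdown replicate 1) to -4.19. Col4a1, which forms with Col4a2 the type IV collagen that nidogens bind, had 3013, 3850 and 3411 CPM against 1577, 2126 and 2301 CPM, with no overlap. Its log2 fold change was -0.78 (SE 0.26, edgeR adjusted p = 0.253, 0.00879 by DESeq2), so it passed by DESeq2 and not by edgeR, and with library size alone the log2 fold change was -0.36. Col4a1 and Col4a2 lie on chromosome 8, where 90.1% of the 624 tested genes had a log2 fold change below 0 (median -0.38) against 47.2% elsewhere. Whether that location bears on their values was not tested. None of the 10 laminin, nidogen and proteoglycan genes lies on chromosome 8.

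Of 14 other basement membrane proteins, 9 were tested, with 4 below 0 and 5 above (median 0.22), and 1 passed, Smoc2. By an unadjusted edgeR p under 0.05 there were 3 of 9, 2 lower and 1 higher, against 12.4% of all tested genes. DESeq2 called 2 of the list, Smoc2 and Hmcn1, against 3.20% of all its tested genes. Hmcn1, the gene of the large matrix protein hemicentin, had 28, 7 and 2 counts in the control samples and 0, 3 and 0 in the knockdown samples and did not pass edgeR's filter (DESeq2 adjusted p = 0.0284). Smoc2, a small calcium-binding matrix protein of the SPARC family, had 15, 17 and 28 counts under knockdown against 1, 0 and 0 in the scrambled libraries. Scaled for depth, the ratio was 29.0 with an exact binomial 95% interval of 5.004 to 1163 that covers counting error. Its edgeR adjusted p of 0.0863 rose to between 0.151 and 0.298 when scrambled control replicate 1, 2 or 3 or knockdown replicate 2 or 3 was left out. Sparc, the most abundant of this list and a collagen-binding protein, had 1827, 1604 and 1763 CPM against 1287, 1444 and 1949, a log2 fold change of -0.15 (SE 0.23, edgeR adjusted p = 0.842) that turned positive with library size alone.

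In the other lists none passed by edgeR. Of 7 further laminin and netrin chains, 3 were tested, all above 0 (median 0.84, 0 at an unadjusted p under 0.05, 0 by DESeq2), and Ntn1, the most abundant, had a log2 fold change of 0.0031 (SE 0.16). Lama1 and Lamc3 had no count in any sample. Of 15 receptors for laminin, nidogen or agrin, 11 were tested, 7 below 0 and 4 above (median -0.18). By an unadjusted edgeR p under 0.05 there were 3 of the 11 (12.4% of all tested genes), 2 lower and 1 higher. DESeq2 called 1 of them, against 3.20% of all its tested genes. That gene was Itga7, a laminin-binding integrin chain, with a log2 fold change of 0.65 (SE 0.18, edgeR adjusted p = 0.158) and a DESeq2 adjusted p of 0.0715. Every knockdown sample of Itga7 lay above every control sample, as in 8.96% of all tested genes. The most abundant of the receptors, dystroglycan (Dag1), had 591, 615 and 577 CPM against 664, 430 and 439, a log2 fold change of -0.22 (SE 0.20, edgeR adjusted p = 0.720) that turned positive with library size alone. Of 25 enzymes that build or edit heparan sulfate chains, the sugar chains of perlecan and agrin, 14 were tested, 3 below 0 and 11 above (median 0.14), with 2 of the 14 at an unadjusted p under 0.05, near the share of all tested genes, and 0 called by DESeq2. Extl3, a glycosyltransferase that starts these chains and the most abundant of the list, had 173, 165 and 165 CPM against 152, 105 and 128, a log2 fold change of -0.38 (SE 0.16, edgeR adjusted p = 0.388), and -0.0069 with library size alone.

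**Figure D4:**
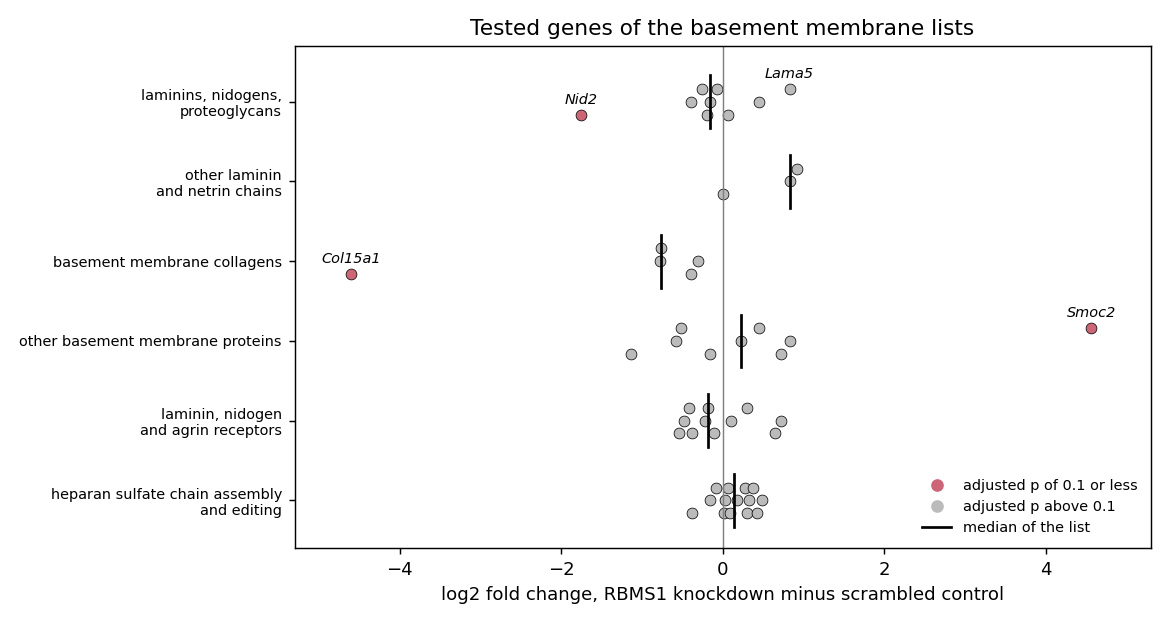
Fitted log2 fold change (knockdown minus control) of the tested genes of the family and of the 5 further lists, 1 point per gene with vertical offsets for legibility, red where the edgeR adjusted p was 0.1 or less, and a bar at each list's median. Nid2, Col15a1 and Smoc2 are the 3 red points, and the 5 tested collagens all lie below 0.

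In bulk RNA, fewer cells of a type and less RNA per cell cannot be told apart, so marker levels are given beside these results. Of 15 adipocyte markers, 14 were tested, 13 had a log2 fold change below 0 (median -0.42) and 1 passed by edgeR (Retn, lower). By an unadjusted edgeR p under 0.05 there were 5 of 14, 4 lower and 1 higher, against 12.4% of all tested genes. DESeq2 called 4, against 3.20% of all its tested genes, of which Retn, Lpl and Plin4 were lower and Cd36, the fatty acid receptor and the 1 marker above 0, was higher (log2 fold change 0.72 by edgeR, DESeq2 adjusted p = 0.0156). Their summed level was 25594, 26758 and 28283 CPM in the control samples and 24093, 13824 and 16448 CPM in the knockdown samples. Of these markers, Retn and Lpl, the lipoprotein lipase gene, lie on chromosome 8. The other 13 markers summed to 13079, 14489 and 13568 CPM against 13750, 8420 and 10804, and the groups then overlapped, with 11 of 12 tested below 0. Of 12 markers of undifferentiated fibroblasts, 11 were tested, 8 were below 0 (median -0.085) and none passed by edgeR. An unadjusted edgeR p under 0.05 was found for 2 of the 11, against 12.4% of all tested genes. DESeq2 called 1 (Pdgfra, a receptor of fibroblast progenitors, lower, adjusted p = 0.0277), against 3.20% of all its tested genes. The summed level of these fibroblast markers was 9302, 8417 and 8300 CPM against 4070, 8900 and 8414. The low value was that of knockdown replicate 1 alone, which also had the highest adipocyte sum of its group and whose removal brought the calls of Lama5 and Agrn. The 6 endothelial markers summed to 0.172 to 2.40 CPM against 0.881 to 2.16, with Kdr at 0 in every sample, and the 5 macrophage markers to 1.38 to 2.48 against 2.13 to 3.27, with Ptprc and Adgre1 at 0. The part of the adipocyte and fibroblast markers in the values of the nidogens, Lama5 and Agrn was not tested.

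The 3 tested genes whose log2 CPM followed that of Nid2 most closely over the 6 samples were Dusp4 (Pearson r = 0.996), Nr3c2 (r = 0.993) and Nnmt (r = 0.990). In all, 56 genes had an r above 0.95. The 6 points fall into 2 groups and share their libraries and depth, so these values are a description. Dusp4 and Nr3c2 lie on chromosome 8 and Nnmt on chromosome 9, with log2 fold changes of -0.84, -0.75 and -1.16.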

How the data were processed

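RNA was sequenced from 6 samples, 3 per group. The authors prepared stranded, ribosomal RNA-depleted libraries, trimmed reads (Trim Galore 0.6.7), aligned them to GRCm38 (STAR 2.7.10a) and deposited estimated counts per gene from Salmon 1.9.0, without normalization. The annotation release is not given in the sources used here. Between 3.97% and 7.78% of the deposited values per sample were not whole, and all were rounded. The groups were compared by edgeR 4.0.16 under R 4.3.3. Genes were filtered with filterByExpr and scaled by TMM, and a quasi-likelihood model (estimateDisp, then glmQLFit with legacy set to false) with group as its single term was tested by glmQLFTest. The Benjamini-Hochberg method was applied over 11440 genes. The SE is the log2 fold change divided by the root of F. Genes with adjusted p up to 0.1 were called. The count alone did not set the precision. Hspg2, with 1625 to 15601 counts per sample, had an SE of 0.25, and Nid2, with 142 to 632, an SE of 0.20. A gene with no count in a sample may have had up to 0.220 to 1.49 CPM (3 counts, counting error only).

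Positions, exon lengths and GC content came from GENCODE M21 (GRCm38), which held 11402 of the tested genes. The rule named the 10 genes, Rbms1, the called genes and the most abundant gene of each of 5 lists, and the 3 genes most like Nid2. Rtraf, Col4a2, Hmcn1, Itga7, the marker genes and the genes named for overlap or for a level of 0 fall outside this rule and were picked with their values in view. The family and all lists were chosen with earlier results of these data known. The alternatives were RLE factors, library size alone, ribosomal RNA genes left out, no filter, at least 1 CPM in 3 samples, DESeq2 1.42.0, limma-voom (limma 3.58.1), unrounded counts, GC and length offsets (loess, span 0.3), a replicate block and each sample left out. In a single simulated data set, the share of false genes among those called was above the nominal level with edgeR, limma-voom and DESeq2, and was highest with DESeq2.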

Additional observations from a re-analysis of the deposited data

How the results depend on the processing

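Over 17 alternatives, 143 of 153 values of the 9 tested genes kept their sign and their side of the threshold, 8 changed sign and 2 newly passed. Nid2 was called in each of them, which is a description, since its difference chose the family. Its 17 values are among the 143. With library size alone the log2 fold changes of Lama4, Lamb1, Lamb2, Lamc1, Sparc and Dag1 became 0.31, 0.15, 0.18, 0.24, 0.23 and 0.16, and 2 of the 9 genes were below 0. The median of all tested genes was 0.37 under that scaling. The median of the 9 minus that of all tested genes was -0.16 with TMM and -0.13 with library size alone. With each sample left out, Lamb2 ranged from -0.37 to 0.0042, Hspg2 from -0.092 to 0.34 and Ntn1 from -0.078 to 0.16. The count of called genes, 140 in all samples, was 268 without the filter, 430 with DESeq2, and 12 to 696 with each sample left out (fewest without control replicate 2, most without knockdown replicate 1), and the number among the 9 was 1 to 3. Of the 5 further lists, 2 genes were called, 6 by DESeq2 and 1 to 6 with each sample left out. The cause was not tested. The deviations of samples with the same replicate number had correlations of -0.14, 0.078 and -0.028. Those of samples with different numbers lay between -0.17 and 0.21. The sources used here do not say whether the numbers are a pairing, and with 3 samples per group this check cannot decide it. With a replicate block 39 genes were called, or 45 with GC and length offsets, and 1 of the further lists in either, Col15a1. The replicate block changed no call among the 9 genes. Lama2, with a summed count of 22 in the control and 14 in the knockdown samples, was not called without the filter or by DESeq2.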
